A study of Mus musculus with 48 samples.

Results

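The replication-dependent histone genes encode the linker histone H1 and the core histones H2A, H2B, H3 and H4 that package newly copied DNA. Members were taken by gene symbol alone (H1f1 to H1f5, and every H2ac, H2bc, H3c and H4c gene), with no measured value in the rule. This gave 63 genes of the 36935 in the deposited table: 5 of class H1, 17 of H2A, 17 of H2B, 12 of H3 and 12 of H4. On GRCm39, 53 of them lie on chromosome 13, between 21899933 and 24118834, and 10 on chromosome 3, between 96127181 and 96177448.

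RNA was sequenced from the mouse embryonic stem cell line E14 and from lines with knockouts of KAT6A, of KAT6B or of both genes, which encode histone acetyltransferases. Samples of every genotype (4 in all) were taken from stem cells in LIF and serum (day 0), at day 2 after LIF withdrawal as embryoid bodies, at day 6 in embryoid bodies given 10 µM all-trans retinoic acid from day 4, and at day 15, after dissociation and plating on day 8 in medium with N2 and later B27 supplement. Every group had 3 libraries from independent differentiation experiments, 48 libraries in 16 groups. The labels name 1 line per genotype, so p-values measure the spread between these cultures of single lines. All knockout lines share the E14 background, and every knockout of a given day was set against the same 3 E14 libraries, so those comparisons are not independent of each other.

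Canonical histone messenger RNAs are made almost only in S phase, when DNA is copied. They end in a conserved stem-loop in place of a poly(A) tail. The stem-loop binding protein SLBP and the U7 small nuclear ribonucleoprotein direct the cut that forms this end, and NPAT, a target of cyclin E with its kinase CDK2, activates transcription of the clusters. The libraries were made from total RNA depleted of ribosomal RNA, so that transcripts without a tail could be counted.

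The end sequence that sets these genes apart is shown because it was not used to choose them. All 63 members were matched by gene identifier to GENCODE M21 models on GRCm38, and 42 models held the 16-base pattern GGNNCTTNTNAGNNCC on the transcribed strand. Over the whole annotation, 201 of 55450 genes (0.362%) held it. The commonest form was found in 24 members and the next, in 6 members, was an H4 form. DNA letters are written 5′ to 3′, with the stem in capitals and the 4-base loop in lower case.
H1f2, chr13:23739512-23739527, plus strand: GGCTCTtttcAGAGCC
H2bc8, chr13:23571843-23571858, plus strand: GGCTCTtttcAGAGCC
H3c6, chr13:23561903-23561918, minus strand: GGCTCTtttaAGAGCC
H3c8, chr13:23535889-23535904, plus strand: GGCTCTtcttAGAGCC
H4c4, chr13:23581950-23581965, plus strand: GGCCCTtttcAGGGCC
The stem-loop began 21 to 58 bases after the stop codon, with a median of 31. Of the other 21 models, 15 stop with the coding part, so that the absence of these letters there says nothing of the transcript. The remaining 6 go further without the pattern. H2bc21, H2bc23, H2bc24 and H2bc4 run 742 to 2192 bases past the coding part. The models of H3c13 and H1f1 end 37 and 48 bases past it, too short to cover the range of positions above, so absence there says little.

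Promoters differed between the classes. RefSeq start sites on GRCm38.p6 were found for 57 members, and the 250 bases before each were searched on both strands. The octamer ATTTGCAT, known as the binding sequence of OCT1 in H2B promoters, stood in 6 of 14 H2B and 6 of 17 H2A promoters and in none of the 26 of H1, H3 and H4, against 1.6% of 32851 promoters of all genes. CCAAT was found in 47 of 57 (82.5%, against 33.8% of all promoters), which took in every H1, H2A and H2B promoter but 3 of 11 for H4. TATAAA was in 28 (49.1%, against 12.4%). The 4 promoters below belong to genes the results turn on, and give the last 150 bases before the start, with these motifs, on either strand, in capitals.
H1f5, chr13:21780626-21780775, minus strand: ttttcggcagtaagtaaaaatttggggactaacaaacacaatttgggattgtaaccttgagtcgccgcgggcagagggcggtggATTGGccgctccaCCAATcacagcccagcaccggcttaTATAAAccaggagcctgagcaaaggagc
H2bc8, chr13:23571250-23571399, plus strand: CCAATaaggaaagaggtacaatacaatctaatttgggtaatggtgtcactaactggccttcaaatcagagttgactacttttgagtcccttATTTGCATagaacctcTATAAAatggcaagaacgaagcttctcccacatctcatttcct
H2bc18, chr3:96269550-96269699, plus strand: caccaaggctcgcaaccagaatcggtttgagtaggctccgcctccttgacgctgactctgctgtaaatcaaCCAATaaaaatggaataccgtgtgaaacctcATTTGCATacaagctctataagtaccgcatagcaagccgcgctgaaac
H4c4, chr13:23581418-23581567, plus strand: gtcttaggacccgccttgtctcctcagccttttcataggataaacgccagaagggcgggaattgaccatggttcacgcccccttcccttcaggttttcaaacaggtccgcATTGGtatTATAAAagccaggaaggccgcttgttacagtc
In these 4 windows, the H2B promoters hold the octamer and those of H1f5 and H4c4 do not. The H2A and H2B genes are often neighbours that point away from each other: 12 such pairs were found, with 175 to 305 bp between the gene models and a median of 258.5 bp. The windows searched in such pairs can overlap, so the octamer counts of H2A and H2B are not independent. The same site was counted for H2ac8 and for H2bc8. In the pairs H2ac12 with H2bc12 and H2ac1 with H2bc1, too, both genes were counted as holding the octamer.

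Library totals ran from 22.5 to 72.28 M (mega counts). The Kat6a transcript was still counted in the lines named for its loss, at 50.2% to 66.9% of E14 in the KAT6A knockout and 59.8% to 75.2% in the double knockout over the 4 days, with 3 of 3 libraries below all E14 libraries each time. Kat6b was at 59.8% to 96.3% of E14 in the KAT6B knockout and 65.4% to 94.6% in the double knockout, but not all libraries lay below E14: 2 of 3 did in each line at day 15, and 1 of 3 in the double knockout at days 2 and 6. A count over a whole gene does not show an edited exon. E14 library 1 at day 0 was the shallowest of the 48 at 22.5 M. In it H2B took 13.3% of the 63-gene sum, against 23.0% and 20.0% in the other 2 libraries of its group. A low H2B share recurred in library 1 of other groups. At day 6 library 1 had 14.5% in E14, against 17.7% and 17.1% in the others. The share was 14.4% in the KAT6B knockout (others 19.2% and 18.6%) and 13.3% in the double knockout (18.9% and 19.0%). In the KAT6A knockout at day 6 library 1 was not low, at 18.78% (18.55% and 18.03%). Library 1 of that line was low at day 2, at 16.44% (19.55% and 20.25%), and at day 15, at 16.54% (19.42% and 19.75%). In the KAT6B knockout library 1 had 19.58% at day 2 (21.99% and 21.83%) and 15.63% at day 15 (19.83% and 21.28%). In E14 and the double knockout library 1 was not the lowest of its group at days 2 and 15. Many comparisons of classes, pairs and single genes with E14 stem cells below are also given without E14 library 1 of day 0. A value given only once may depend on that library too.

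Histone transcripts were abundant in stem cells and lowest in the cultures of day 15 in all 4 lines. Levels here are CPM, each count set relative to its library total and to trimmed-mean factors over all 48 libraries. In E14 the 63 genes summed to 15123, 11644 and 10640 CPM at day 0 (12469 ± 2353, mean ± SD, n = 3) and to 14213, 15162 and 14198 CPM at day 2 (14524 ± 552). At day 6 the sums were 14576, 8834 and 9612 CPM (11007 ± 3115), and at day 15 they were 3000, 3080 and 2640 CPM (2907 ± 234). The day 15 libraries lay far below all others, while those of days 0 and 6 overlapped. Without the trimmed-mean factors the E14 means at days 0, 2, 6 and 15 were 11327, 14079, 12651 and 3061 CPM. The order of days 0 and 6 thus rested on the scaling. The day 15 mean was 23.3% of the day 0 mean in E14 (26.1% without library 1 of day 0), 17.8% in the KAT6A knockout, 22.7% in the KAT6B knockout and 21.9% in the double knockout. In bulk RNA, fewer dividing cells and less histone RNA per cell cannot be told apart.

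**Figure D1:**
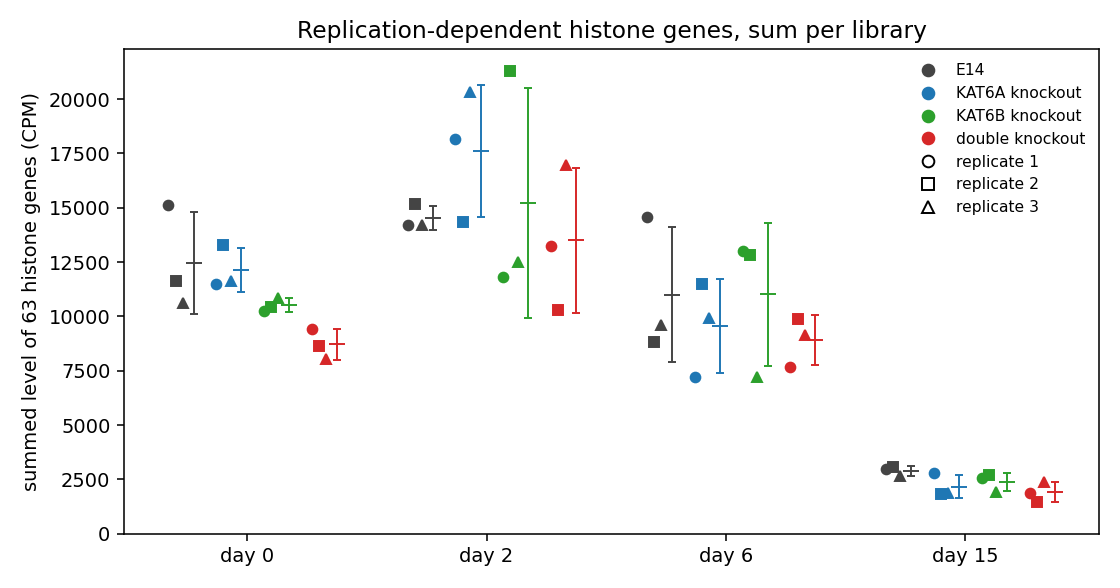
Summed level of the 63 histone genes in CPM (vertical axis) in each library, by day (horizontal axis); colours are the 4 lines, point shapes the replicates, and crosses with bars the mean ± SD (n = 3). Day 15 lies between 1462 and 3080 CPM in every line, and the double knockout lies below E14 at days 0 and 15 without overlap.

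In E14, H4 took 27.8% of the 63-gene sum at day 0 and 28.8% at day 15, H1 22.7% and 24.6%, H3 20.9% and 18.9%, H2B 18.8% and 19.4%, and H2A 9.7% and 8.4%. The makeup by class was thus close at the 2 ends of the course, at very different sums. Without library 1 of day 0 the day 0 shares were 25.9% for H4, 21.7% for H1, 20.96% for H3, 21.52% for H2B and 9.9% for H2A. Single genes spanned a wide range. The member with the highest mean level over all groups was H1f2, and the lowest was H2bc21, at 0.76 ± 0.45 CPM in E14 stem cells. CPM is not corrected for gene length, so the order between genes of different classes is not read here.

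From day 0 to day 2 of the E14 course, edgeR's quasi-likelihood test with Benjamini-Hochberg adjustment over all 20510 genes tested called 10 of 63 members higher and 0 lower (a call is an adjusted p under 0.05). Of all genes, 9.5% were called higher. The members' median log2 change was 0.25, beside -0.02 over all genes, and 55 of 63 lay above 0. By class, the risers were 6 of 17 H2B genes, 3 of 12 H3 genes and 1 of 17 H2A genes, with none of 5 H1 and none of 12 H4. The class medians were 0.56 for H2B, 0.42 for H3, 0.25 for H1, 0.24 for H2A and 0.03 for H4. This order rested on E14 library 1 of day 0: without it the medians were 0.37 for H2B, 0.41 for H3, 0.39 for H1, 0.42 for H2A and 0.29 for H4, and 62 of 63 members lay above 0.

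H2bc6, an H2B gene, was at 82.9, 189 and 126 CPM at day 0 and at 239, 272 and 244 CPM at day 2. All 3 day 2 libraries were higher than all 3 of day 0, and the log2 change was 0.92 ± 0.21 (SE, adjusted p = 0.00806). Its gene model spans H1f4 on the same strand, so reads of the 2 genes may not have been separated. H2bc8, another H2B gene, whose octamer-bearing promoter is shown above, went from 108, 199 and 147 CPM to 254, 296 and 222 CPM, again without overlap (log2 change 0.76 ± 0.18, adjusted p = 0.00852). H3c13, an H3 gene of the chromosome 3 cluster, went from 61.0, 68.3 and 53.6 CPM to 73.9, 150 and 113 CPM (0.88 ± 0.25, adjusted p = 0.0226). The 7 other risers (H2bc14, H2bc3, H2bc22, H2bc13, H3c10, H2ac11 and H3c3) changed by 0.41 to 0.71. H4c4, the H4 gene with the highest level, was at 821, 553 and 563 CPM at day 0 and 631, 670 and 650 CPM at day 2, with a log2 change of 0.00 ± 0.20 (adjusted p = 1). Its day 0 library 1 was the highest, and without that library the change was 0.23 ± 0.20 (adjusted p = 0.462).

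Within gene pairs, too, the changes depended on library 1 of day 0. In 8 of the 12 head-to-head pairs the H2B gene had the larger log2 change at day 2, and in 5 of 12 without E14 library 1 of day 0. In the pair H2ac8 and H2bc8 the changes were 0.12 and 0.76 (0.36 and 0.58 without it), and in H2ac22 and H2bc22 they were -0.05 and 0.58 (0.27 and 0.42 without it). H2ac11 and H2bc11 went the other way, at 0.54 and 0.17 (0.43 and -0.02 without it). The 12 H2A and H2B genes with the octamer had a median change of 0.42 (3 called higher), and the 19 matched without the octamer 0.39 (4 called higher). Without E14 library 1 of day 0 these medians were 0.44 and 0.37, with 1 called higher in each set.

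The count at day 2 depended on single libraries: it was 5, 13 and 2 without E14 libraries 1, 2 and 3 of day 0, and 6, 1 and 3 without libraries 1, 2 and 3 of day 2. H2bc6 was called in all 6 of these fits and H2bc8 in 5, while H3c13 was called in 2. Without library 1 of day 0, the median change was 0.39 and the 5 called members were H1f4, H2bc6, H2bc8, H3c6 and H4c18.

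S-phase genes as a list were not higher at day 2. Of all 20510 genes tested, 2478 were called lower and 1948 higher at this time. Of 22 S-phase genes (replication licensing, forks and nucleotide supply), 0 were higher and 6 lower, with a median of -0.29. These included Cdt1, which licenses origins (-0.63), Rrm2, a ribonucleotide reductase subunit (-0.60), and Cdc6, a loader of the MCM helicase (-0.60). Of 9 genes for histone gene transcription, 2 fell: Ccne1, cyclin E1 (-0.83), and Cdc25a, a phosphatase that activates CDK2 (-0.60). Npat stood at 65.5, 118 and 92.2 CPM at day 0 and 106, 120 and 119 CPM at day 2 (0.32 ± 0.17, adjusted p = 0.196). Slbp fell from 79.8, 82.5 and 92.2 CPM to 59.5, 64.4 and 71.4 CPM (-0.39 ± 0.12, adjusted p = 0.036), and of the 13 genes for histone mRNA processing and decay 2 fell and 1 rose. Among 14 histone chaperones 3 fell and 1 rose, and among 11 replication-independent histone variants 1 rose and 1 fell. The riser was H1f0, the linker histone associated with differentiated, resting cells (0.77 ± 0.21, adjusted p = 0.0205).

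**Figure D2:**
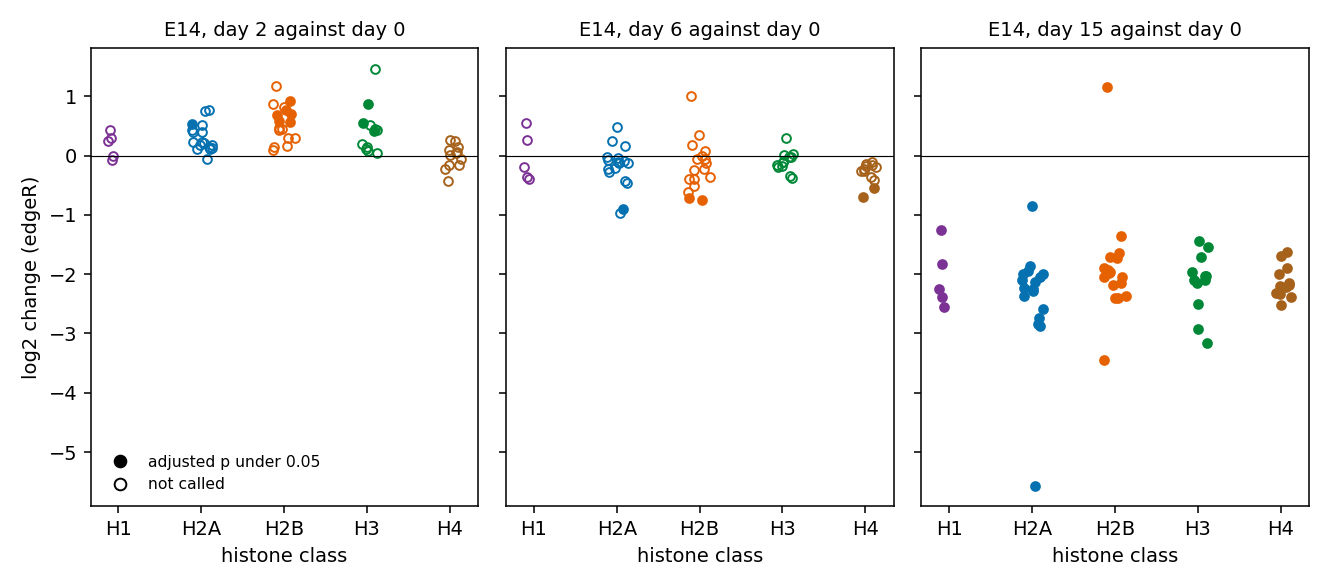
Log2 change of each of the 63 members in E14 at days 2, 6 and 15 against day 0 (vertical axis), by histone class (horizontal axis); filled points have an adjusted p under 0.05 by edgeR. At day 2 the class medians run from 0.03 for H4 to 0.56 for H2B with all libraries (0.29 and 0.37 without E14 library 1 of day 0), and at day 15 all points but H2bc21 lie below 0.

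At day 6 of the E14 course, 5 of 63 members were lower than at day 0 and 0 higher, with a median of -0.17 beside 0.05 over all genes. Of all genes, 24.2% were called lower, a larger share than the members' 5 of 63. H2bc11, an H2B gene, fell from 91.9, 159 and 140 CPM to 75.6, 70.7 and 79.0 CPM (-0.75 ± 0.18, adjusted p = 0.00305). H2bc18, the most abundant H2B gene, fell from 884, 741 and 697 CPM to 631, 373 and 384 CPM (-0.71 ± 0.18, adjusted p = 0.00513). In both genes all 3 day 6 libraries lay below all 3 of day 0. H2ac22, an H2A gene, went from 43.1, 25.2 and 25.3 CPM to 23.2, 9.21 and 16.4 CPM (-0.91 ± 0.31, adjusted p = 0.0241), and H4c14 and H4c2 also fell (-0.70 and -0.55). Without E14 library 1 of day 6, whose histone sum was the highest of its group, 12 were lower and 0 higher (median -0.34). Calls in both directions appeared in other fits: 1 higher and 6 lower without library 1 of day 0 (median -0.06), 2 and 6 without library 2 of day 0, 3 and 5 without library 2 of day 6, and 2 and 3 without library 3 of day 6. Without library 2 of day 6 the median was 0.01, so that its sign rested on that library. H2bc11, H2bc18 and H4c2 were called whichever library was left out (6 fits).

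The S-phase list had 19 of 22 genes lower and 0 higher at this time, with a median of -0.71. Mcm5 and Mcm2, subunits of the replicative helicase, changed by -1.12 and -1.10. Of the transcription list, 5 of 9 fell, including Ccne1 by 2.45 and Cdc25a by 0.78 on the log2 scale, and Npat had a change of -0.17 (adjusted p = 0.445). Slbp fell by 0.59 (adjusted p = 0.00122), with 8 of 13 processing genes lower and 3 higher. Chaperones fell in 10 of 14 and rose in 1. Of the replication-independent variants 5 rose and 3 fell, with H1f0 up by 2.16 and Macroh2a1, a variant with a large C-terminal domain, by 1.24. Over all 20510 genes tested, 5290 were called higher and 4967 lower.

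At day 15 of the E14 course, 62 of 63 members were lower than at day 0 and 1 was higher. Over all genes, 33.2% were called lower and 36.5% higher, and the median was 0.09, against -2.10 for the members. All 5 H1, 17 H2A, 12 H3 and 12 H4 genes fell, as did 16 of 17 H2B genes. Class medians lay close together, from -1.98 for H2B to -2.24 for H1, and from -1.86 for H4 to -2.18 for H2A without E14 library 1 of day 0. The 53 genes on chromosome 13 had a median of -2.19 and the 10 on chromosome 3 of -1.90 (-2.12 and -1.63 without that library). The 23 models with the stem-loop near their end had a median of -2.05, the 19 with a longer end -1.99, and the 15 that stop with the coding part -2.20. Without E14 library 1 of day 0 these medians were further apart, at -2.105, -1.840 and -2.217.

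Among the linker histones, H1f2 was at 1038, 583 and 507 CPM at day 0 and at 189, 211 and 188 CPM at day 15 (-1.82 ± 0.31, adjusted p = 0.000134). Without library 1 of day 0 its log2 change was -1.43. H2ac15, the H2A gene with the highest level, fell from 250, 211 and 195 CPM to 47.7, 50.0 and 39.2 CPM (-2.22 ± 0.19, adjusted p = 1.93e-07). H2bc18 was at 186, 192 and 168 CPM at day 15 (-2.05 ± 0.19, adjusted p = 3.48e-07). In each of these genes all day 0 libraries lay well above all of day 15. H3c6, the leading H3 gene, fell from 578, 473 and 454 CPM to 153, 152 and 144 CPM (-1.71 ± 0.18, adjusted p = 1.65e-06). H4c4 ended at 204, 205 and 176 CPM (-1.69 ± 0.21, adjusted p = 6.29e-06).

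The steepest falls were in H2ac1 and H2bc1, which form a head-to-head pair and encode the testis-type H2A and H2B. H2ac1 was at 9.40, 12.5 and 8.90 CPM at day 0, at 14.5, 17.5 and 20.1 CPM at day 2, and at 0, 0.32 and 0.26 CPM at day 15 (-5.57 ± 0.54, adjusted p = 6.16e-07). H2bc1 went from 9.64, 11.4 and 8.01 CPM to 1.05, 0.67 and 0.88 CPM (-3.45 ± 0.36, adjusted p = 1.15e-06). Next in size was H3c8, from 430, 257 and 276 CPM to 35.9, 43.6 and 25.7 CPM (-3.16 ± 0.26, adjusted p = 1.39e-07). In all 3 genes the day 15 libraries were the lowest of the course.

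The exception was H2bc21, an H2B gene whose model runs 2192 bases past its coding part and holds no stem-loop pattern. It stood at 0.45, 1.28 and 0.55 CPM at day 0 and at 1.78, 1.33 and 1.92 CPM at day 15 (1.15 ± 0.44, adjusted p = 0.0313). With 1 library left out the call was lost in 4 of 6 fits, and the highest adjusted p was 0.112. Its head-to-head neighbour H2ac20 changed by -1.99 at the same time. In 11 of the 12 pairs the H2B gene had the higher log2 change at day 15, the exception being H2ac11 and H2bc11, but in 7 of 12 without E14 library 1 of day 0.

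Genes of the machinery around the histones also fell at day 15. All 22 S-phase genes were lower (median -1.97), with Mcm5 from 586, 475 and 646 CPM to 61.7, 98.6 and 73.3 CPM. Of the transcription list, 8 of 9 fell (median -0.67): Ccne1 changed by -3.53, Cdc25a by -1.96 and E2f1, a factor that drives S-phase entry, by -1.22. Npat changed by -0.50 ± 0.17 (adjusted p = 0.0174), ending at 62.9, 63.7 and 62.4 CPM. Slbp ended at 32.96, 34.51 and 36.61 CPM (-1.25 ± 0.12, adjusted p = 7.05e-07), and of the processing list 9 of 13 fell and 3 rose (median -0.89). Zfp473, a zinc finger protein of the U7 processing complex, fell by 2.78 and Srrt, which links the cap to histone mRNA processing, by 1.88 (log2). Of 14 chaperones 12 fell and 1 rose, led by Hat1, the acetyltransferase of new H4 (-2.78), Nasp, a carrier of H3 and H4 (-2.70), and Chaf1a of the CAF-1 complex.

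Replication-independent variants, whose genes are not tied to S phase, were mixed at day 15: 7 of 11 fell and 2 rose, with a median of -0.70. H1f0 rose from 50.1, 49.5 and 28.6 CPM to 139, 201 and 159 CPM (2.00 ± 0.22, adjusted p = 1.77e-06). H2az1, an H2A variant found at promoters, fell from 715, 469 and 562 CPM to 129, 137 and 123 CPM (-2.13 ± 0.21, adjusted p = 7.98e-07), and Cenpa, the centromeric H3, fell by 1.96. For the H3.3 genes, H3f3a changed by -0.38 ± 0.10 (adjusted p = 0.00451) and H3f3b by -0.28 ± 0.15 (adjusted p = 0.123), against a median of -2.07 for the 12 H3 members.

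The cell markers in the E14 course moved as follows at day 15. Pluripotent stem cell markers fell in 5 of 6 genes and neuron markers rose in 6 of 6, while neural progenitor markers rose in 5 of 6 and fell in 1. Glia, mesenchyme and endoderm markers rose in 6 of 6 each. The summed mesenchyme level at day 15 was 1629 to 4270 CPM and that of neuron markers 1151 to 2103 CPM, so the cultures held markers of several cell types. No marker was at 0 in every E14 library of day 15, and the part of these cells in the histone change was not tested.

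**Figure D3:**
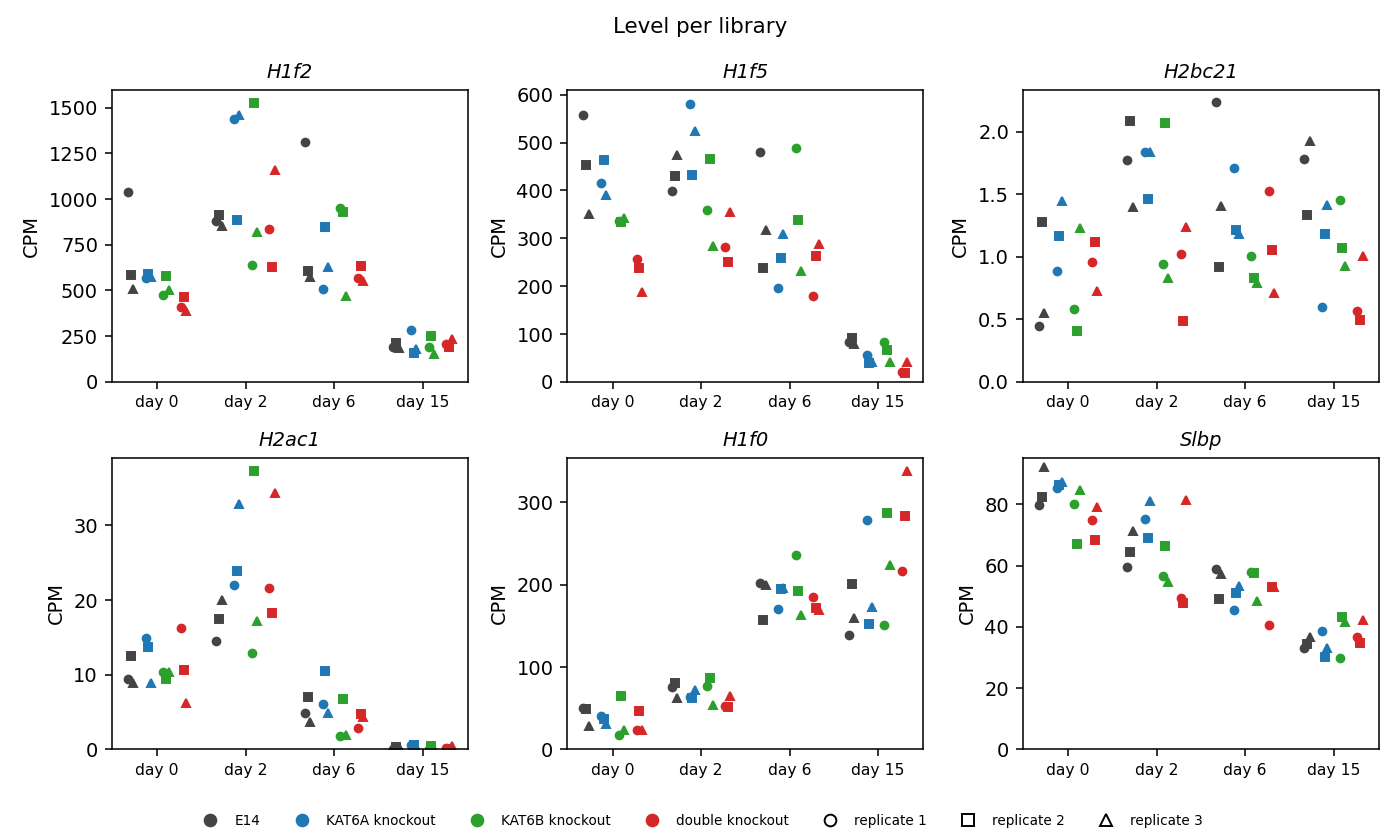
Level in CPM (vertical axes, from 0) in each library by day (horizontal axes) for 4 members (H1f2, H1f5, H2bc21, H2ac1) and 2 other genes, the replication-independent linker histone H1f0 and Slbp; colours are lines and point shapes replicates. H1f0 is low at days 0 and 2 and higher at days 6 and 15, H1f2 and H1f5 are lowest at day 15, and H2bc21 stays under 2.3 CPM throughout.

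The fall to day 15 was found in each knockout line. In the KAT6A knockout 62 of 63 members were lower and 0 higher (median -2.83, with 32.9% of all genes lower). In the KAT6B knockout 61 were lower and 0 higher (median -2.27, with 28.2% of all genes lower). In the double knockout 62 were lower and 0 higher (median -2.69, with 34.1% of all genes lower). H2bc21 was the gene not called in all 3 lines, with changes of -0.07, 0.74 and -0.44 and adjusted p of 0.879, 0.195 and 0.415. All 22 S-phase genes fell in each line, with medians of -2.30, -1.86 and -2.36.

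H2ac1 again changed most in each line, by -4.58 ± 0.39 in the KAT6A knockout, -5.45 ± 0.77 in the KAT6B knockout and -5.52 ± 0.51 in the double knockout (adjusted p = 2.38e-07, 8.01e-05 and 7.58e-07). H2bc1, its neighbour, changed by -3.96, -4.22 and -4.05. H2ac23, an H2A gene, fell from 135, 144 and 145 CPM to 8.25, 1.25 and 15.9 CPM in the KAT6A knockout (-3.99 ± 0.67, adjusted p = 0.000142). The same gene in the double knockout went from 95.0, 90.8 and 102 CPM to 1.47, 6.75 and 3.70 CPM (-4.57 ± 0.43, adjusted p = 1.08e-06). H2ac23 was the other member not called in the KAT6B knockout (-2.51, adjusted p = 0.0735), where H2ac8 went from 101, 91.5 and 101 CPM to 8.68, 9.19 and 9.56 CPM (-3.30 ± 0.29, adjusted p = 2.35e-06). H2ac23 was uneven there, at 7.72, 94.9 and 120 CPM at day 0 and 2.18, 27.5 and 5.15 CPM at day 15, so that the groups overlapped.

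**Figure D4:**
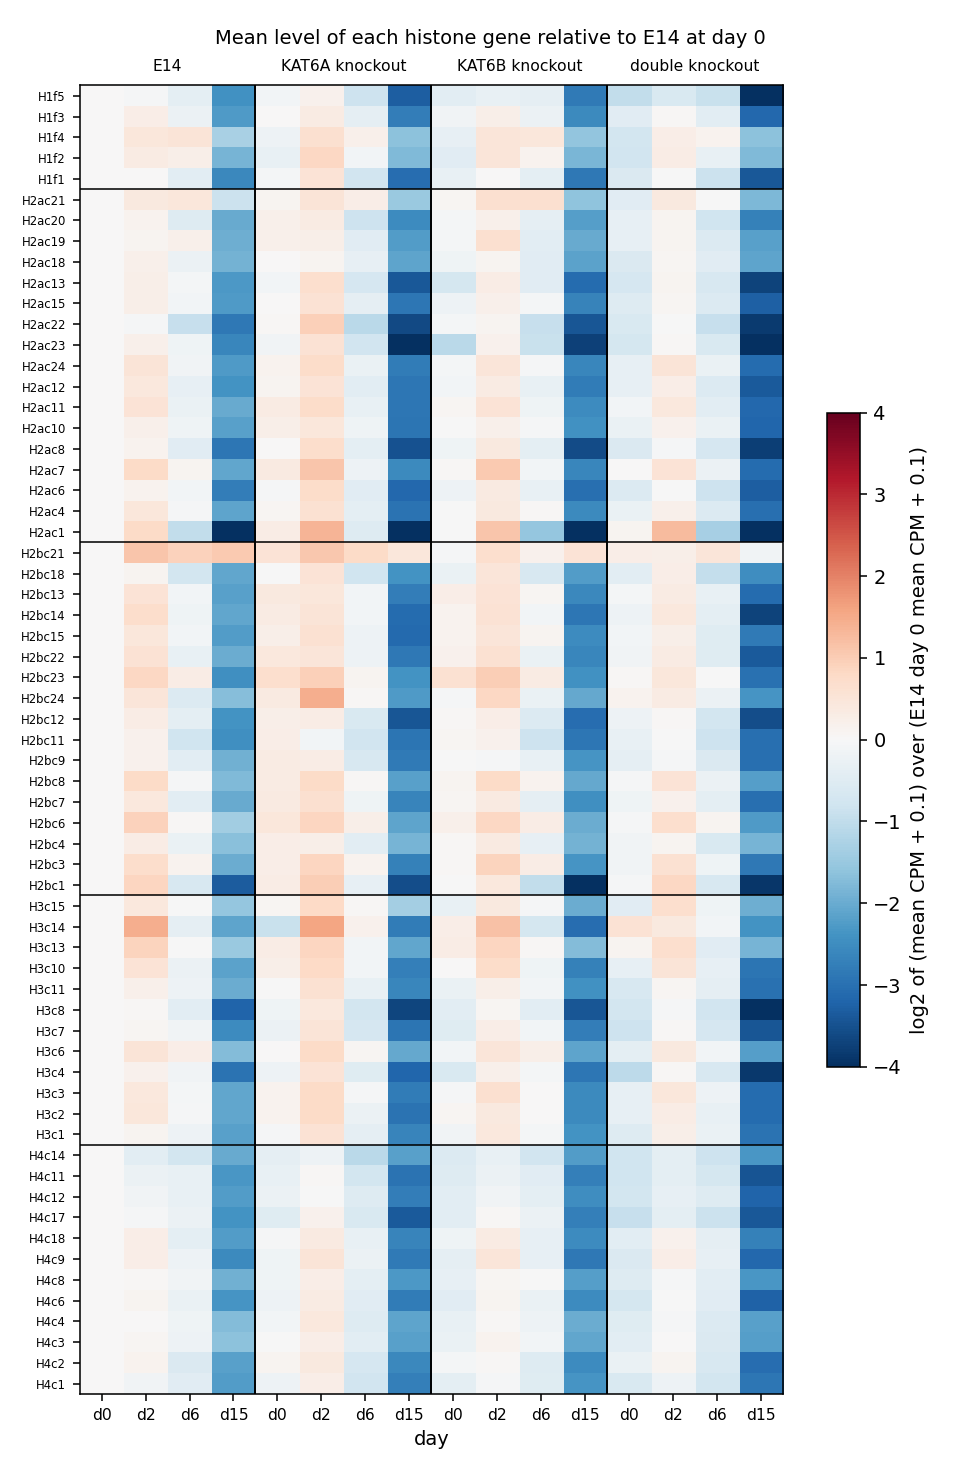
Mean level of each of the 63 members (rows, by class) in the 16 groups (columns, by line and day) as log2 of (mean CPM + 0.1) over (E14 day 0 mean CPM + 0.1); the colour scale is clipped at -4 and 4. The day 15 columns are blue in all 4 lines for every row but H2bc21. The day 0 column of the double knockout is paler blue in most rows of every class, with E14 library 1 of day 0 in the reference mean.

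Stem cells of the double knockout line had lower histone transcript levels than E14. The 63 genes summed to 9443, 8631 and 8056 CPM in the double knockout at day 0 (8710 ± 697, n = 3), which was 69.8% of the E14 mean (78.2% without E14 library 1), and all 3 libraries lay below all 3 of E14. edgeR called 13 of 63 members lower and 0 higher, with 0.792% of all 18938 genes tested called lower. The members' median was -0.41, beside 0.00 over all genes, and 57 of 63 lay below 0. At an unadjusted p under 0.05, 40 members were lower, and DESeq2 called 26.

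The lower genes were 2 of 5 in H1, 6 of 12 in H3, 2 of 12 in H4, 2 of 17 in H2A and 1 of 17 in H2B. The class medians were -0.77, -0.45, -0.63, -0.37 and -0.16 in the same order. The spread between classes rested on E14 library 1: without it the medians were -0.40, -0.41, -0.30, -0.34 and -0.33, and 60 of 63 members lay below 0. H1f5, a linker histone, was at 557, 452 and 351 CPM in E14 and 257, 239 and 188 CPM in the double knockout (-1.02 ± 0.15, adjusted p = 0.00659). The groups did not overlap, and H1f5 was called whichever library was left out (6 fits). In the KAT6A knockout it stood at 415, 464 and 391 CPM and in the KAT6B knockout at 337, 334 and 343 CPM.

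H3c4, an H3 gene, was at 491, 239 and 269 CPM in E14 and 167, 172 and 139 CPM in the double knockout (-1.09 ± 0.24, adjusted p = 0.0355). H3c7, another H3 gene, was at 617, 364 and 363 CPM and 268, 269 and 215 CPM (-0.87 ± 0.18, adjusted p = 0.0293). In both genes E14 library 1 was the highest by far, and without it the groups were still apart but neither was called (-0.69 and -0.56, adjusted p = 0.0928 and 0.0519). Of the genes with the highest level in their class, H2bc18 (-0.45 ± 0.11, adjusted p = 0.0472) and H2ac15 (-0.54 ± 0.12, adjusted p = 0.0368) were called, while H1f2 (-0.79, adjusted p = 0.0578), H4c4 (-0.50, adjusted p = 0.0738) and H3c6 (-0.41, adjusted p = 0.0813) were not. Without E14 library 1 these 5 changes ran from -0.43 to -0.28, with none called. The 8 further members called were H2ac18, H1f3, H3c1, H3c3, H3c8, H3c11, H4c6 and H4c12, with changes from -0.77 to -0.36.

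The count depended on single libraries, and the median less so. Without E14 library 1 of day 0 the median was -0.34 and 3 members were called (H1f5, H3c8 and H3c11), without E14 library 2 it was -0.45 with 25, and without E14 library 3 it was -0.47 with 14. Without double knockout libraries 1, 2 and 3 it was -0.49, -0.38 and -0.41, with 2, 1 and 1 called. In a fit of all 48 libraries no member was called.

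Of 22 S-phase genes 1 was lower in the same libraries, Gins2, a subunit of the helicase complex GINS (-0.61, adjusted p = 0.0462), with a list median of -0.24, and the list's sum was 5010 to 5898 CPM in E14 and 4603 to 4963 CPM in the double knockout. Slbp was at 74.9, 68.2 and 79.2 CPM in the double knockout (-0.22, adjusted p = 0.278) and Npat at 93.5, 103 and 109 CPM (0.12, adjusted p = 0.728). The transcription, processing and chaperone lists held 0 called genes by edgeR, with medians of -0.04, -0.05 and -0.10. Of the replication-independent variants 3 of 11 were lower: H2az1 (-0.57), Macroh2a1 (-0.49) and H3f3a (-0.42), with adjusted p of 0.0368, 0.0264 and 0.0453.

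Marker genes of other cell types moved with this comparison, in which 246 of all 18938 genes were called higher and 150 lower. Mesenchyme markers were higher in 3 of 6 genes (Acta2, Col1a1 and Col1a2), with a summed level of 187 to 296 CPM in E14 and 528 to 818 CPM in the double knockout stem cells. Neural progenitor markers were lower in 2 of 6 (Pax6 and Nes), and pluripotent stem cell markers in 2 of 6 (Klf4 and Esrrb), with sums of 2498 to 3200 CPM in E14 and 2030 to 2443 CPM. Of the endoderm markers Ttr was at 0 in every double knockout library, and of the glia markers Aqp4 in every E14 library. Their part in the histone difference was not tested.

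The single knockouts gave no called member in stem cells. In the KAT6A knockout the members' median was 0.01, with 1 member at an unadjusted p under 0.05 and 0 called by DESeq2 or edgeR (0% of all genes were called by edgeR). In the KAT6B knockout the median was -0.11, with 15 members at an unadjusted p under 0.05, all lower, and 0 called by either tool (0.0106% of all genes by edgeR). The summed levels were 97.3% and 84.4% of E14 (108.9% and 94.5% without E14 library 1). Among the leading genes of the 5 classes, changes ran from -0.36 to -0.06 in the KAT6A knockout and from -0.49 to -0.15 in the KAT6B knockout, largest for H1f2 in each. Without E14 library 1 they ran from 0.04 to 0.07 and from -0.17 to -0.03, H1f2 had 0.04 and -0.10, and 0 members had an unadjusted p under 0.05 in either line. Without E14 library 2, 3 members were called lower in the KAT6B knockout.

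**Figure D5:**
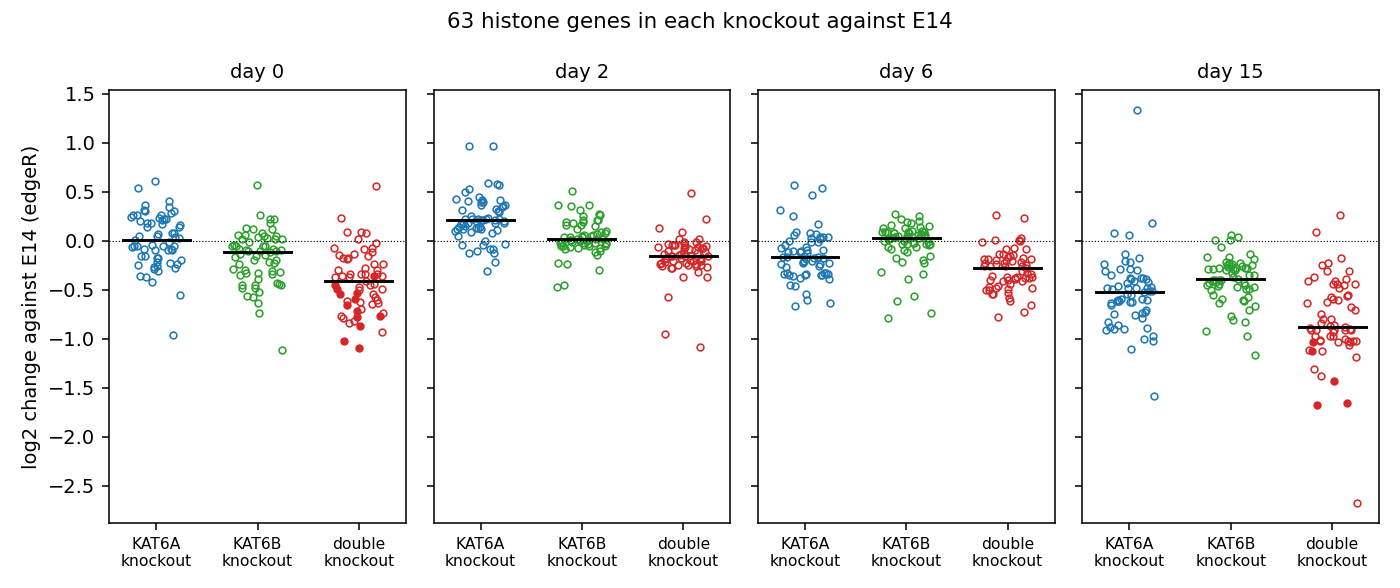
Log2 change of each of the 63 members against E14 (vertical axis) in the 3 knockouts (horizontal axis) at days 0, 2, 6 and 15; filled points have an adjusted p under 0.05 by edgeR and black bars are medians. Filled points appear in the double knockout at days 0 and 15, where the medians are -0.41 and -0.88.

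At days 2 and 6 no member was called in any knockout. At day 2 the medians were 0.21 in the KAT6A knockout, 0.01 in the KAT6B knockout and -0.15 in the double knockout, where all-gene calls by edgeR came to 0.0102%, 0% and 1.12%. Members at an unadjusted p under 0.05 numbered 5, 0 and 3, and DESeq2 called 0, 0 and 1. At day 6 the medians were -0.17, 0.03 and -0.28, with 0%, 0.0292% and 0.0682% of all genes called, and 0 members passed at an unadjusted p under 0.05 or by DESeq2 in any line. The summed level at day 2 was 18175, 14345 and 20307 CPM in the KAT6A knockout and 11804, 21291 and 12524 CPM in the KAT6B knockout, a wider spread than the 14198 to 15162 CPM of E14. Among the leading genes of the classes, H1f2 had the largest change in the KAT6A knockout at day 2 (0.50) and in the double knockout at day 6 (-0.54), with adjusted p of at least 0.467 for all 5 in every line at both days.

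At day 15 the double knockout had the lowest mean histone level. Its libraries summed to 1872, 1462 and 2384 CPM (1906 ± 462), 65.6% of E14, and all 3 lay below all 3 E14 libraries. They overlapped those of the KAT6A knockout (2777, 1814 and 1888 CPM) and of the KAT6B knockout (2550, 2693 and 1914 CPM). edgeR called 5 of 63 members lower and 0 higher, with 1.32% of all genes lower, and 61 of 63 lay below 0 with a median of -0.88. At an unadjusted p under 0.05, 41 were lower, and DESeq2 called 29. The 5 were 3 of 17 H2A genes, 1 of 5 H1 genes and 1 of 17 H2B genes.

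H1f5 was at 84.0, 91.7 and 79.4 CPM in E14 and 19.9, 18.4 and 42.4 CPM in the double knockout (-1.68 ± 0.34, adjusted p = 0.0326), with 56.1, 38.5 and 42.0 CPM in the KAT6A knockout and 82.5, 66.7 and 42.1 CPM in the KAT6B knockout. H2bc14, an H2B gene, was at 16.18, 16.6 and 13.99 CPM in E14 and 5.02, 2.95 and 7.05 CPM in the double knockout (-1.65 ± 0.29, adjusted p = 0.026). H2ac13 was at 21.7, 18.7 and 16.8 CPM and 7.504, 6.099 and 7.737 CPM (-1.43 ± 0.31, adjusted p = 0.0391). In these genes the 2 groups did not overlap, and H2ac15 and H2ac11 were lower as well (-1.04 and -1.12). The linker histone H1f2 stood at 206, 188 and 235 CPM in the double knockout, beside 189, 211 and 188 CPM in E14 (0.09 ± 0.22, adjusted p = 0.837).

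These calls rested on single libraries. Without E14 library 1, 2 or 3, or without double knockout library 1 or 2, 0 members were called by edgeR. Without double knockout library 3, which had the highest sum of its group, 6 were called. The median stayed between -1.16 and -0.62 in these fits.

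Around the histones, 0 of 22 S-phase genes were called by edgeR at day 15 in the double knockout (median -0.44), and 0 in the transcription and processing lists (medians -0.04 and 0.05). The chaperone Nasp was lower, at 54.7, 43.5 and 67.3 CPM beside 91.7, 110 and 96.0 CPM in E14 (-0.86 ± 0.16, adjusted p = 0.0274), as was H3f3a (-0.70, adjusted p = 0.0462), the only one of 11 replication-independent variants called. Slbp and Npat had changes of 0.11 and 0.16 (adjusted p = 0.66 and 0.639).

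Cell type markers differed in the same libraries. Neural progenitor markers were lower in 3 of 6 genes (Hes5, Sox1 and Sox2), with sums of 671 to 781 CPM in E14 and 57.4 to 253 CPM in the double knockout. Glia markers were lower in 2 of 6, Aqp4 and Slc1a3 (182 to 352 CPM against 15.96 to 48.14 CPM). For neuron markers (1151 to 2103 CPM against 115 to 643 CPM), mesenchyme markers (1629 to 4270 CPM against 7333 to 8591 CPM) and endoderm markers (592 to 906 CPM against 1292 to 1567 CPM) the sums did not overlap, with 0 of 6 genes called by edgeR in each list. Of the pluripotent stem cell markers Klf4 was higher. Over all 20229 genes tested, 376 were called higher and 267 lower. No marker was at 0 in a whole group at day 15, and the part of the cell makeup in the histone difference was not tested.

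The single knockouts at day 15 had medians below 0 with no called member by edgeR. In the KAT6A knockout the median was -0.53, 59 of 63 lay below 0, 19 had an unadjusted p under 0.05 and DESeq2 called 3, with 0% of all genes called by edgeR. In the KAT6B knockout the median was -0.40, 59 lay below 0, 6 had an unadjusted p under 0.05 and DESeq2 called 2, with 0.0742% of all genes called by edgeR. Summed levels were 74.3% and 82.1% of E14, with 2 of 3 libraries below all E14 libraries in each. Among the leading genes of the classes, H2ac15 had the lowest change in both (-0.64 and -0.41) and H1f2 the highest (0.08 and 0.01). The E14 libraries are the same in all 3 comparisons, so the shared sign is not independent.

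Whether the fall from day 0 to day 15 differed between a knockout and E14 was tested as an interaction. In the KAT6A knockout 1 member had a larger fall, against 0.0184% of all genes with a lower interaction. This was H2bc12, an H2B gene, at 161, 209 and 145 CPM falling to 36.4, 32.2 and 29.0 CPM in E14, and at 185, 229 and 188 CPM falling to 18.04, 15.22 and 14.87 CPM in the KAT6A knockout (difference of log2 changes -1.25 ± 0.21, adjusted p = 0.0324). In the KAT6B knockout 0 members were called by edgeR or by DESeq2, 6 had an unadjusted p under 0.05, and 2.94% of all genes were called. In the double knockout 2 of 63 members had a larger fall, a smaller share than the 3.75% of all genes with a lower interaction: H2ac23 (-1.95 ± 0.55, adjusted p = 0.0349) and H2bc14 (-1.44 ± 0.43, adjusted p = 0.0483). The members' medians were -0.61, -0.35 and -0.38, beside -0.03, -0.08 and -0.03 over all genes. Without E14 library 1 of day 0 the members' medians were -0.670, -0.344 and -0.515.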

How the data were processed

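Total RNA depleted of ribosomal RNA was read as strand-specific libraries, per the labels' protocols. The authors deposited raw counts per gene. Reads were aligned with HISAT2 to GRCm39, per the submitters' processing notes. Not given in the sources used here are the version of the aligner, the program that counted, its use of strand and the annotation, so near-identical histone copies and the 9 members that overlap another entry (5 on the same strand) have uncertain counts. Of 36983 entries, 48 repeating a gene identifier were left out, keeping the entry with most counts, and 0 columns were unmapped.

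Models were fitted to these counts in R 4.3.3 with edgeR 4.0.16: expression filter (minimum count 10, minimum total 15), trimmed-mean scaling, robust quasi-likelihood tests and Benjamini-Hochberg adjustment over all genes, with 12 libraries per line or day and 24 per interaction. All 63 members passed the filter. DESeq2 1.42.0, other scaling and filters, a fit of 48 libraries, a replicate block and leaving out each library were alternatives. The tests were tested on simulated data. Pairing of same-numbered replicates was checked with a cut of all 3 correlations r over 0.1. Of 18 comparisons (r from -0.40 to 0.71), only the double knockout against E14 at day 6 met this cut. All main fits, that comparison included, were unpaired, and the replicate block was used only as an alternative. For the double knockout at day 0, r was 0.19, 0.10 and 0.40, beside a mean of -0.12 for other numbers. A weaker pairing is therefore not excluded. Named are the highest gene of each class, up to 3 called members per direction and comparison, and up to 3 called genes per list. Members and lists were chosen with earlier results of these data known.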

Additional observations from a re-analysis of the deposited data

Results flagged for a closer look

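3 members had a fall from day 0 to day 15 that differed between a knockout and E14 by the interaction test of edgeR. H2bc12 in the KAT6A knockout had a difference of log2 changes of -1.25, and its call was kept in 5 of 12 fits with 1 library left out. It was lost without any 1 of the KAT6A knockout libraries of day 0, without library 1 of day 15 in either line, and without E14 library 1 or 3 of day 0. In the KAT6A knockout 0.0184% of all genes had a lower interaction. In the double knockout the share of all genes was 3.75%, above that of the members (2 of 63). There H2bc14 had -1.44 (kept in 2 of 12) and H2ac23 -1.95 (kept in 3 of 12), and no member was called without any 1 of the double knockout libraries of day 0, its library 1 of day 15, E14 library 3 of day 0 or E14 library 1 or 3 of day 15. For H2ac23, E14 library 1 was the highest of its group at day 0, at 230 CPM beside 145 and 92.4 CPM.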

How the results depend on the processing

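The fall to day 15 kept its count within 1.5 times in all 4 lines under every alternative run, with 61 to 62 of the members called in E14, the KAT6A knockout and the KAT6B knockout and 62 in the double knockout when 1 library was left out. No called result changed its direction, though the members' median at day 6 in E14 went from -0.17 to 0.01 without library 2 of that day. Scaling by relative log expression moved no count by more than 1.5 times. Other counts were less firm. Leaving out 1 library gave 1 to 13 members at day 2 and 5 to 12 at day 6 in E14 (0 to 3 of them higher), 1 to 25 for the double knockout at day 0 and 0 to 6 at day 15, 0 to 3 for the KAT6B knockout at day 0 and 0 to 1 at day 15 (1 without its library 1). For the interactions it gave 0 to 5 (KAT6A knockout, most without E14 library 2 of day 0), 0 to 3 (KAT6B knockout, that library too) and 0 to 8 (double knockout, most without its library 3 of day 15). DESeq2 called 26 members for the double knockout at day 0, 1 at day 2 and 29 at day 15, 3 for the KAT6A and 2 for the KAT6B knockout at day 15, and 7 and 4 in the KAT6A and double knockout interactions. With all 48 libraries in 1 fit there were 2 members at day 2 in E14, 0 for the double knockout at day 0 and 30 at day 15, 3 and 1 for the KAT6A and KAT6B knockouts at day 15, and 0 and 1 in the KAT6A and double knockout interactions. A filter of at least 1 CPM in 3 libraries gave 8 members at day 6 in E14 and 8 for the double knockout at day 15, and no filter gave 3 there and 0 in its interaction. Same-numbered libraries met the cut for pairing in 1 of 18 comparisons. A replicate block moved the count to 10 at day 6 in E14 (1 higher and 9 lower). With it the count was 22 for the double knockout at day 0 and 0 at day 15. In the KAT6A and KAT6B knockout interactions it was 2 and 3. The cause of these moves was not tested. The effect of library depth was not tested either, and H2bc21 lay near 1 CPM.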
